A study of Mus musculus with 6 samples.

Results

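The genes described here are 39 neighbours on mouse chromosome 5, from Wbscr16 to Cux1, out of 23224 genes in the deposited table of expected counts. They were chosen by the difference measured in this contrast, the segment they form having been lower in the libraries labelled SOX17KO than in the Control libraries. Their values are therefore given as a description. Where a member is said to be called, the call is read from the fit of all genes and is likewise a description, not evidence for the decrease. All 6 libraries came from AKP organoids that had been established from in vivo tumours. AKP is the name the labels give to the organoids, which serve as a model of colon cancer, and both groups share that background. In 3 libraries the genotype was SOX17KO, made with CRISPR-Cas9, and in 3 it was Control. The labels do not say whether the SOX17KO libraries came from separate clones, nor whether those of 1 group were separate cultures, so p-values measure only the spread between these libraries, and that spread may be technical.

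The first block of the segment, Wbscr16 to Pom121, holds mouse counterparts of the genes of the human interval affected in Williams-Beuren syndrome, a developmental disorder of the heart, vessels and brain. The genes from Hip1 to Dtx2 and from Rasa4 to Cux1 lie in human in 2 other blocks of the long arm of chromosome 7. The genes have no common function: among them are general transcription factors of the TFII-I family, chromatin remodelling subunits, enzymes of RNA modification, metabolic enzymes, signalling adaptors and the homeobox factor Cux1. What they share is position.

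The total was 24765258, 23411787 and 18290912 expected counts in SOX17KO replicates 1, 2 and 3, against 27503254, 21238718 and 26466544 in Control replicates 1, 2 and 3. Sox17, which encodes the endoderm transcription factor that was targeted, was at 33.8, 41.9 and 45.1 CPM (counts scaled to a common library size with TMM factors) in the SOX17KO libraries, against 34.4, 34.5 and 34.2 CPM in the Control libraries. Its log2 fold change was 0.23 ± 0.12 (adjusted p = 0.345 by edgeR), and without SOX17KO replicate 1 it was called higher, at 0.34 (adjusted p = 0.0113). The transcript was not lower in SOX17KO, and its level does not check the labels. SOX17KO below means the libraries so labelled. SOX17KO replicate 1 stood apart, with correlations of log2 CPM over all tested genes of 0.960 and 0.963 to replicates 2 and 3. SOX17KO replicates 2 and 3 correlated at 0.986 with each other. With the Control libraries they correlated at 0.968 to 0.97, above their correlations with SOX17KO replicate 1. The Control libraries correlated at 0.994 to 0.995 with each other. The 7 epithelial markers summed to between 9663.1 and 13846.1 CPM in SOX17KO and between 13144.0 and 13931.9 CPM in Control. Most of the sum came from keratins, and the markers differed in direction. Epcam was called higher, at 126.9% of Control (adjusted p = 0.0343 by edgeR). The others were not called and ranged from 78.7% of Control for Krt19 to 116.9% for Cdh1. The 6 fibroblast markers summed to between 0.111 and 0.42 CPM in SOX17KO and to at most 0.0724 CPM in Control, with Col3a1 and Dcn at 0 in every library. The 4 endothelial markers summed to between 0.0878 and 0.878 CPM in SOX17KO and between 0.144 and 0.304 CPM in Control. The 5 neural and muscle markers summed to between 0.499 and 0.878 CPM in SOX17KO and between 0.418 and 0.718 CPM in Control, with Sox10 and Des at 0. The 6 immune markers summed to between 5.19 and 14 CPM in SOX17KO and between 8.48 and 11 CPM in Control, nearly all from Cd68, and the T and B cell markers Cd3e and Cd79a were at 0 in every library.

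Of the 39 members, 33 passed the filter on low counts and were fitted with all 12137 tested genes by edgeR's quasi-likelihood method. In SOX17KO their median log2 fold change against Control was -1.47, which is 36.1% of the Control level, with quartiles of -1.62 and -1.30. The median over all tested genes was 0.01. The fitted log2 fold change was negative for 32 of the 33, and for 29 it was at or below -1, the lowest at -1.85. By edgeR's adjusted p below 0.05 over all genes, 28 of the 33 were called lower and 0 higher. Over all tested genes 3.2% were called lower and 3.67% higher, and nothing is read from the members' share, since this contrast chose them. In 31 of the 33 all 3 SOX17KO libraries were below all 3 Control libraries, as they were for 14.2% of all tested genes, and in 29 the mean in SOX17KO was at 50% of the Control mean or less, as it was for 2.71% of all tested genes. Under the alternatives the number of members called lower was 28 in each of 6 other fits. The share of all genes called lower beside it was 3.21% with RLE factors, 2.92% with plain library totals and 2.45% without the low-count filter. It was 3.38% with a filter of at least 1 CPM in 3 libraries, 4.95% with DESeq2 and 3.25% with limma-voom. The members called were 25, 25 and 26 without Control replicate 1, 2 or 3, beside 0.798%, 0.763% and 0.854% of all genes. Without SOX17KO replicate 1, 2 or 3 it was 30, 27 and 28, beside 10.3%, 2.56% and 2.62%. In bulk RNA, fewer cells that express a gene and less of its RNA in each cell cannot be told apart.

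To show what the starts of members look like, the 250 bases before the start of 4 of them are given, taken 5′ to 3′ on the gene's strand from RefSeq on GRCm38.p6. Eif4h was at the members' median and had the most counts, Cux1 is the end of the list, and Gtf2ird1 and Mlxipl had the 2 highest log2 fold changes. Capitals mark matches to the motifs searched, listed after the sequences. The positions are chr5:134639410-134639659 (minus strand) for Eif4h, chr5:136565982-136566231 (minus strand) for Cux1, chr5:134456717-134456966 (minus strand) for Gtf2ird1 and chr5:135106641-135106890 (plus strand) for Mlxipl.
Eif4h: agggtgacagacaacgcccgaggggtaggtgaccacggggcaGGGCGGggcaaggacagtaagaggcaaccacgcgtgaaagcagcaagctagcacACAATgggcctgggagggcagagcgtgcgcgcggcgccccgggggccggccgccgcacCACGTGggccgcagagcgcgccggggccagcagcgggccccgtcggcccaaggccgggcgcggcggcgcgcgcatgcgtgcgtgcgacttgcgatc
Cux1: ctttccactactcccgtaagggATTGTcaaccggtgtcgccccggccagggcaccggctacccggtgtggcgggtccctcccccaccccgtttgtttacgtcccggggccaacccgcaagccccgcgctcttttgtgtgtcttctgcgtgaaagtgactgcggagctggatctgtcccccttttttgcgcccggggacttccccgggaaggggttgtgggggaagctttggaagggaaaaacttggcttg
Gtf2ird1: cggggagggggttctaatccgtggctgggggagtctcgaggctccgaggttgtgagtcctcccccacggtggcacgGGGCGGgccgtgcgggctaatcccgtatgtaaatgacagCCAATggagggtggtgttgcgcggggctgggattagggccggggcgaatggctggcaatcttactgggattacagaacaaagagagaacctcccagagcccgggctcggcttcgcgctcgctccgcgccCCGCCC
Mlxipl: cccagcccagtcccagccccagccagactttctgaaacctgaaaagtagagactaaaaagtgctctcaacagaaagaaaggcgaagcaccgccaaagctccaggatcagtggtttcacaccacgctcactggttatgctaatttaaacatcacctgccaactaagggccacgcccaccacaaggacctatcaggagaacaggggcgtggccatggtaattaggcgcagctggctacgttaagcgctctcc

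The motifs were the SOX core ACAAT, the GC box GGGCGG, the CCAAT box CCAAT, the TATA box TATAAA and the E-box CACGTG, each on either strand. Matches to the SOX core and the CCAAT box on opposite strands can overlap. Of the 30 tested members with a promoter in the RefSeq table, 4 (13.3%) held the SOX core in these 250 bases, as did 18.3% of the 9621 other tested genes with a promoter there. The 4 were Eif4h, Cux1, Clip2 and Abhd11, whose log2 fold changes were -1.47, -1.74, -1.09 and -1.07. The promoters of Wbscr27, Rhbdd2, Dtx2, Orai2 and Bcl7b, which were among the 6 lowest members, did not hold it, nor did those of Gtf2ird1 and Mlxipl. The GC box was in 18 members (60%) and in 59.9% of the other genes, the CCAAT box in 9 (30%) and 37.4%, the E-box in 4 (13.3%) and 8.44%, and the TATA box in 1 (3.33%) and 6.49%. The members' promoters had a median GC content of 63.2% (range 42 to 74.8%), against 60% in the other tested genes. A match is a run of letters and not a binding site. Across the 30 members, promoter GC content and log2 fold change had a Pearson r of 0.07 and a Spearman rho of 0.09; these genes share the libraries and the segment and are not independent replicates.

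The 2 ends of the list were both lower. Wbscr16, now named Rcc1l, encodes a mitochondrial protein with RCC1-like repeats. Its level was 18.1, 13.4 and 11.4 CPM in SOX17KO, against 34.5, 36.8 and 40.2 CPM in Control, a log2 fold change of -1.37 ± 0.17 (SE). Cux1, the CUT-like homeobox transcription factor at the other end, was at 35.2, 36.6 and 32.8 CPM in SOX17KO, against 124.4, 113.3 and 112.9 CPM in Control, a log2 fold change of -1.74 ± 0.08. Neither gene's groups overlapped, and the SOX17KO libraries lay close together for Cux1 and were more spread for Wbscr16, with replicate 1 the highest.

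**Figure D1:**
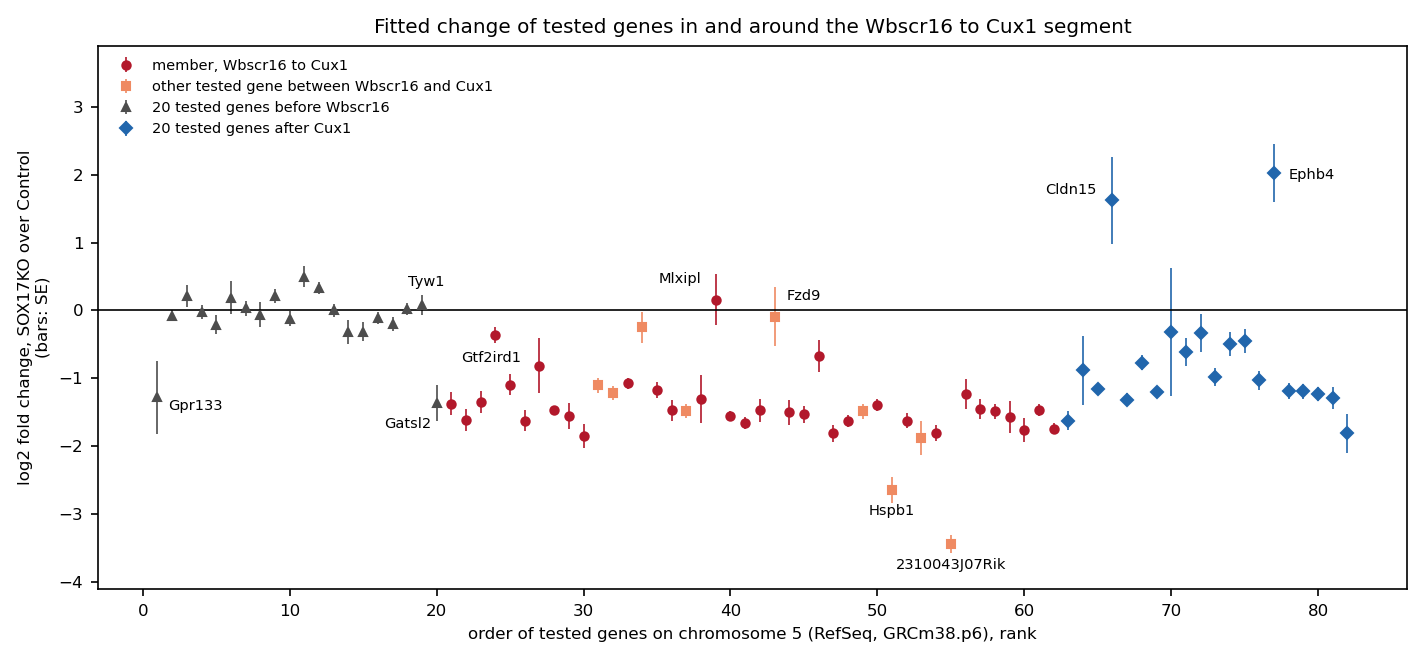
Fitted log2 fold change, SOX17KO over Control, with its standard error (vertical axis) for tested genes in chromosome order (horizontal axis, rank), with the 33 tested members, the 9 other tested genes between Wbscr16 and Cux1 and 20 tested genes on either side. The genes before Gatsl2 lie around 0 apart from Gpr133, most members lie between -1.85 and -1.07, and the genes after Cux1 are mostly below 0.

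Just outside the list, the nearest tested gene before Wbscr16 was Gatsl2, now named Castor2, which encodes a homologue of an arginine sensor of the mTORC1 pathway. It was at 6.6, 10.9 and 13.9 CPM in SOX17KO, against 30.2, 24.9 and 24.8 CPM in Control, with no overlap. The next tested gene outward, Tyw1, a tRNA wybutosine synthesis enzyme, was at 38, 32.6 and 25 CPM in SOX17KO, against 30.2, 30.2 and 30.3 CPM in Control. The 5 genes of the table between Tyw1 and Gatsl2 were too low to test. Without Gatsl2, the remaining 19 of the 20 tested genes before Wbscr16 had a median log2 fold change of -0.02, and none of them was called (edgeR, adjusted p). The step on this side lay between Tyw1, which was not lower, and Wbscr16, which was. Whether it came before or after Gatsl2 rests on Gatsl2 alone, with a log2 fold change of -1.36 ± 0.26 (adjusted p = 0.0251 by edgeR). Gatsl2 lost its call without Control replicate 1, 2 or 3 (adjusted p = 0.129, 0.0972 and 0.0987 by edgeR) and without SOX17KO replicate 2 (0.0639).

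On the other side no such step followed Cux1. Rabl5, now named Ift22, an intraflagellar transport protein gene and the first tested gene after Cux1, was at 5.84, 4.7 and 6.21 CPM in SOX17KO, against 16.2, 17.7 and 17.5 CPM in Control. The 20 tested genes after Cux1 had a median fold change equal to 49.8% of Control, with 12 called lower and 1 higher, beside 3.2% and 3.67% of all tested genes. A further set, the 110 tested genes from Plod3 to Cpsf4, shares with these 20 the genes from Plod3 to Pcolce. It had a median of -0.66, which is 63.2% of Control against 36.1% for the members. In it 68 were called lower and 1 higher, beside the same shares of all genes. The gene called higher was Ephb4 in both sets. The members and the Plod3 to Cpsf4 genes were both chosen for being lower, so the difference in size between them was not tested. The 621 tested genes of chromosome 5 outside the longer stretch from Wbscr16 to Rpl21 had a median of 0.03.

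Within the list the median decrease over all libraries differed little between blocks. The median log2 fold change was -1.47 over 20 tested genes from Wbscr16 to Pom121, -1.63 over 6 from Hip1 to Dtx2 and -1.48 over 7 from Rasa4 to Cux1. In SOX17KO replicate 1 the medians of these blocks were 42.1%, 31.9% and 37.4% of Control. They were 35.9%, 35.4% and 36.1% in replicate 2 and 33.6%, 32.2% and 30.5% in replicate 3. Leaving aside Mlxipl, Gtf2ird1, Hip1 and Lat2, which had the 4 highest values, the other 29 had a standard deviation over genes of 0.20 around a median of -1.50, where the median standard error of a gene was 0.15. These 4 were set aside after their values were seen. Across the 33 tested members, log2 fold change and position had a Spearman rho of -0.34, and log2 fold change and mean log2 CPM a rho of -0.11 and a Pearson r of -0.42. Over the 27 members with a mean log2 CPM above 3 the median was -1.48.

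Among the transcription factors, the TFII-I family was unequal. These proteins carry repeated DNA-binding domains and bind initiator and other promoter elements. Gtf2i, which encodes TFII-I itself, was at 108.0, 76 and 72.4 CPM in SOX17KO, against 223.9, 218.1 and 213.6 CPM in Control, a log2 fold change of -1.35 ± 0.16. Gtf2ird2 was at 3.28, 3.51 and 2.88 CPM in SOX17KO, against 9.55, 11.1 and 8.9 CPM in Control, a log2 fold change of -1.61 ± 0.16. Gtf2ird1, which lies between Gtf2i and Clip2 in the order, was at 84, 64.5 and 67.3 CPM in SOX17KO, against 97.5, 87.5 and 91.9 CPM in Control. Its log2 fold change was -0.36 ± 0.12, or 77.9% of Control, with 4885.11 expected counts over the 3 SOX17KO libraries behind it. All 3 genes had SOX17KO libraries below every Control library, and for Gtf2ird1 the gap between the groups was narrow, with SOX17KO replicate 1 the nearest to Control. It passed the threshold when that replicate was left out, with a log2 fold change of -0.49.

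Mlxipl encodes ChREBP, the carbohydrate-responsive activator of glycolytic and lipogenic genes, which is abundant in liver. It was at 0.878, 0.395 and 0.776 CPM in SOX17KO, against 0.543, 0.526 and 0.761 CPM in Control, and it was the 1 tested member with a positive fitted log2 fold change (0.16 ± 0.38). The groups overlapped, and the value rests on 46 expected counts over the SOX17KO libraries. Without SOX17KO replicate 1 its value was -0.11.

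Among genes of chromatin and replication, Baz1b encodes WSTF, the partner of an ISWI ATPase and a kinase of histone H2A.X. It was at 141.7, 94.2 and 92.7 CPM in SOX17KO, against 300.9, 298.8 and 310.6 CPM in Control (log2 fold change -1.47 ± 0.17). Bcl7b, a SWI/SNF subunit gene, was at 14.6, 13.7 and 13.1 CPM in SOX17KO, against 42.4, 45.2 and 42.9 CPM in Control (-1.66 ± 0.09). The SOX17KO libraries of Bcl7b were close to each other, while for Baz1b replicate 1 was well above the other two. Rfc2, a subunit of the clamp loader that puts the sliding clamp on DNA, averaged 25.5 ± 5.11 CPM in SOX17KO and 78.3 ± 7.62 CPM in Control (SD, n = 3 each), and Lrwd1, which binds the origin recognition complex, averaged 19.4 ± 2.48 CPM in SOX17KO and 54.1 ± 2.11 CPM in Control.

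Among genes of RNA synthesis, RNA modification and translation, Eif4h had the most counts of the list. Its protein stimulates the helicase that unwinds messenger RNA at the start of translation. It was at 235.8, 246.5 and 245.7 CPM in SOX17KO, against 658.3, 667.5 and 690.4 CPM in Control, a log2 fold change of -1.47 ± 0.07, and the libraries of each group lay close together. Polr2j, a core subunit of RNA polymerase II, averaged 20.5 ± 4.14 CPM in SOX17KO and 55.9 ± 2.96 CPM in Control. The RNA methyltransferase genes Nsun5 and Wbscr22, now named Bud23, both of which act on ribosomal RNA, were at 35.3% and 36.1% of Control. Wbscr27, now named Mettl27, is a predicted methyltransferase gene and had the lowest log2 fold change of the list, -1.85 ± 0.18. It was at 4.01, 5.44 and 6.15 CPM in SOX17KO, against 20.8, 18.3 and 16.9 CPM in Control, with no overlap. Prkrip1, whose protein binds the RNA-dependent kinase PKR, was at 36.3% of Control and Alkbh4, a dioxygenase gene, at 33.4%.

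Among metabolic and mitochondrial enzymes the decrease was smaller for Abhd11 than for Mdh2 and Por. Mdh2, the mitochondrial malate dehydrogenase of the tricarboxylic acid cycle, was at 172.6, 160.3 and 142.7 CPM in SOX17KO, against 417.9, 405.5 and 425.3 CPM in Control (log2 fold change -1.39 ± 0.09). Por, the reductase that passes electrons to microsomal cytochrome P450 enzymes, was at 52.3, 57.2 and 50.7 CPM in SOX17KO, against 173.8, 168.5 and 153.9 CPM in Control (-1.63 ± 0.09). Neither gene's groups overlapped, and the SOX17KO libraries of Por were the closer together. Abhd11, a mitochondrial hydrolase gene, was at 28.1, 26.3 and 27.2 CPM in SOX17KO, against 58.4, 55.4 and 57.2 CPM in Control, a log2 fold change of -1.07 ± 0.08 that was among the smaller ones, though its libraries were close together.

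**Figure D2:**
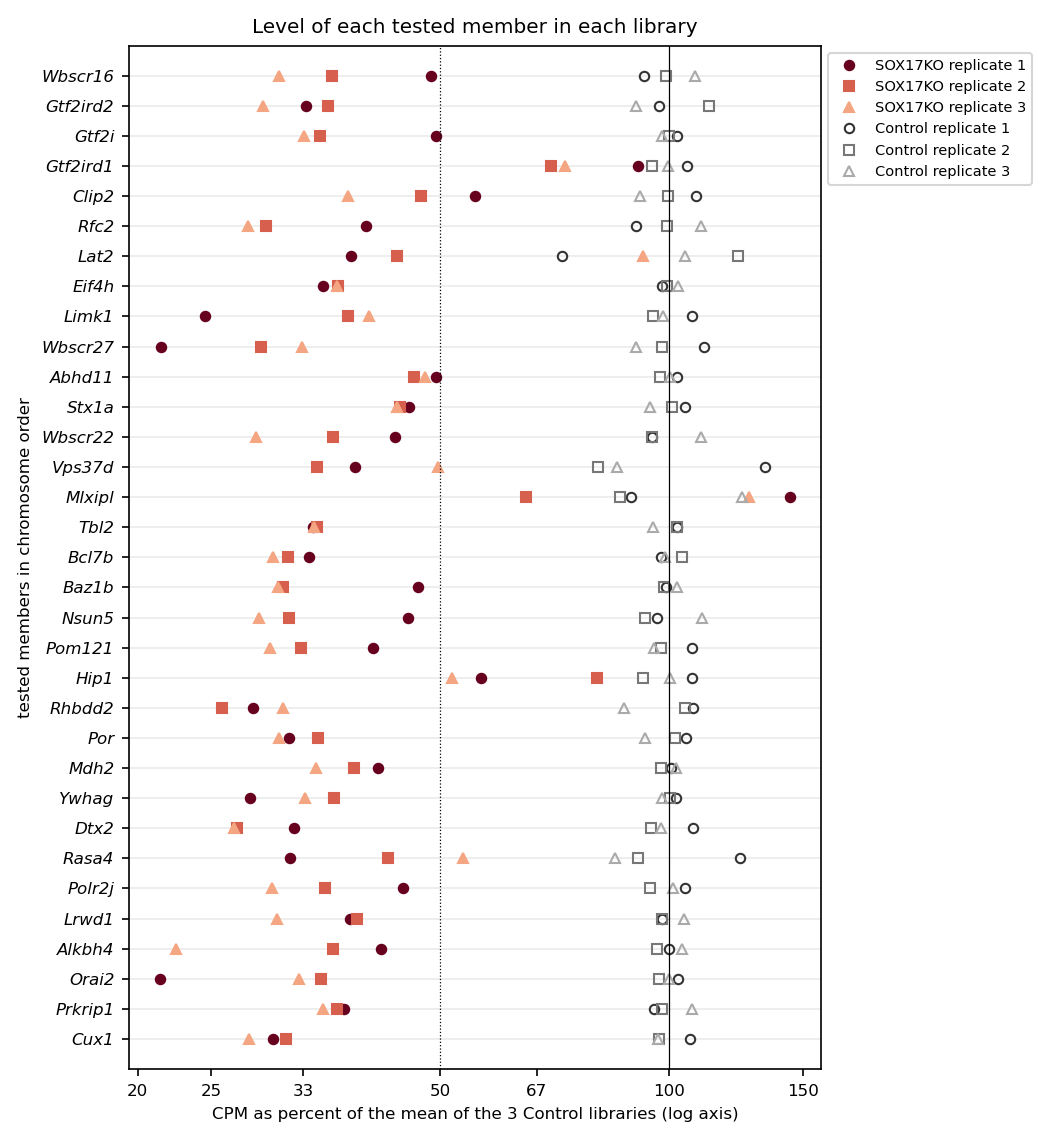
CPM of each of the 33 tested members in each library as percent of the mean of the 3 Control libraries (horizontal log axis), members in chromosome order from top to bottom; filled symbols are SOX17KO and open symbols Control replicates. Most SOX17KO points lie near the median of 36.1%, and those of Gtf2ird1, Hip1, Mlxipl and in part Lat2 lie higher.

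Among genes of signalling, Ywhag encodes the gamma form of the 14-3-3 proteins, adaptors that bind phosphorylated partners. It was at 132.8, 171.1 and 156.9 CPM in SOX17KO, against 481.3, 473.5 and 461.5 CPM in Control (log2 fold change -1.62 ± 0.11). Orai2, a subunit of store-operated calcium channels, was at 8.55, 13.9 and 13 CPM in SOX17KO, against 41, 38.7 and 39.9 CPM in Control (-1.76 ± 0.18). Dtx2, a ubiquitin ligase gene of the deltex family linked to Notch signalling, was at 9.5, 7.99 and 7.93 CPM in SOX17KO, against 31.8, 28 and 28.9 CPM in Control (-1.80 ± 0.12). The groups were far apart for all 3, with SOX17KO replicate 1 the lowest for Ywhag and Orai2 and the highest for Dtx2. Limk1, the kinase that inactivates the actin-severing protein cofilin, averaged 13.3 ± 3.31 CPM in SOX17KO and 38.9 ± 2.41 CPM in Control. Rasa4, a calcium-triggered GTPase-activating protein gene, was at 13.5, 18.2 and 22.8 CPM in SOX17KO, against 52.8, 38.8 and 36.2 CPM in Control. Control replicate 1 was well above the other Control libraries. Rasa4 lost its call when Control replicate 1, 2 or 3 or SOX17KO replicate 2 was left out. Clip2 and Alkbh4 also lost the call, Clip2 without Control replicate 1 or 2 and Alkbh4 without Control replicate 1, 2 or 3.

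Among genes of membranes and the cytoskeleton, Rhbdd2, a rhomboid-family membrane protein gene, was at 7.94, 7.24 and 8.7 CPM in SOX17KO, against 30.1, 29.4 and 24.4 CPM in Control (log2 fold change -1.81 ± 0.13). Clip2, which encodes a microtubule-binding linker protein, was at 21.9, 18.6 and 14.9 CPM in SOX17KO, against 42.7, 39.3 and 36.1 CPM in Control (-1.09 ± 0.15). Both had groups that did not overlap, with the decrease of Clip2 among the smallest of the well-counted members. The nuclear pore gene Pom121, the endoplasmic reticulum protein gene Tbl2 and the SNARE gene Stx1a were at 34.5%, 34.2% and 44.5% of Control. Hip1, an endocytic adaptor that links clathrin and actin, was at 1.76, 2.5 and 1.61 CPM in SOX17KO, against 3.33, 2.87 and 3.12 CPM in Control (-0.67 ± 0.23). Vps37d, a subunit of the ESCRT-I sorting complex, averaged 0.365 ± 0.0705 CPM in SOX17KO and 0.891 ± 0.264 CPM in Control, with no overlap. Lat2, an adaptor of immune receptor signalling, was at 0.458, 0.527 and 1.11 CPM in SOX17KO, against 0.868, 1.48 and 1.26 CPM in Control (-0.81 ± 0.41). Hip1, Vps37d and Lat2 were not called, and of these 3 Lat2 had overlapping groups.

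The 6 members that did not pass the filter on low counts were close to 0. Styxl1, a pseudophosphatase gene, had 0 expected counts in SOX17KO and 11 in Control, and Sh2b2, an adaptor gene of insulin receptor signalling, had 4 in SOX17KO and 37 in Control. Eln, which encodes elastin, had 0 in SOX17KO and 1 in Control, and Fkbp6, a germ cell immunophilin gene, 0 in SOX17KO and 2 in Control. The ubiquitin ligase gene Trim50 and the neuronal splicing gene Srrm3 had 0 in both groups. None of the 6 bears on the size of the decrease at this depth. Sh2b2 passed the filter and was called lower without SOX17KO replicate 1. With no low-count filter, where 37 members were fitted, none of the 6 was called.

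The 3 SOX17KO libraries did not decrease by the same amount in every member. Over the 33 tested members the median level was 38.6%, 36.1% and 32.9% of the Control mean in replicates 1, 2 and 3, while in Control replicates 1, 2 and 3 the median log2 difference from the Control mean was 0.03, -0.03 and -0.01. Replicate 1 was the highest of the 3 in 18 members, the lowest in 8 and in the middle in 7. Its log2 level differed from the mean of replicates 2 and 3 by a median of 0.35 in size, where replicates 2 and 3 differed from each other by a median of 0.16. Over all tested genes replicate 1 stood apart as well, so nothing particular to the members is read from this. Replicate 1 was at least 0.5 higher in 6 members, namely Gtf2i, Wbscr16, Alkbh4, Nsun5, Baz1b and Mlxipl, and at least 0.5 lower in 5, namely Lat2, Limk1, Orai2, Rasa4 and Wbscr27. Limk1 was at 24.5% of Control in replicate 1 and at 37.9% and 40.3% in replicates 2 and 3, and Baz1b at 46.7% in replicate 1 and at 31% and 30.5%. Tbl2, by comparison, was at 34%, 34.4% and 34.1% of Control in replicates 1, 2 and 3. Without replicate 1 the median log2 fold change of the tested members was -1.56, against -1.47 with all libraries.

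The table also held 18 genes that RefSeq places between Wbscr16 and Cux1 and that are not in the list, of which 9 were tested. Their median log2 fold change was -1.48, with 7 called lower and 0 higher, beside 3.2% and 3.67% of all tested genes. They lie in the segment that was chosen for being lower, so these values are likewise a description and not evidence for the decrease. Without Control replicate 1, 2 or 3 the number called lower was 6, Srcrb4d losing its call (adjusted p = 0.0594, 0.0515 and 0.0536 by edgeR). The tight junction genes Cldn3 and Cldn4 averaged 96.2 ± 10.2 and 73.1 ± 8.34 CPM in SOX17KO, against 223.3 ± 15.2 and 156.5 ± 10.7 CPM in Control. Tmem120a, a membrane protein gene, was at 35.7% of Control and Dnajc30, a mitochondrial co-chaperone gene, at 35.9%, and both had groups far apart. Srcrb4d, now named Ssc4d, was at 27.3% of Control. The small heat shock protein gene Hspb1 was at 9.05, 5.84 and 5.88 CPM in SOX17KO, against 45.4, 39.8 and 45.3 CPM in Control, or 15.9% (log2 fold change -2.64 ± 0.19). The uroplakin-like gene 2310043J07Rik, now named Upk3bl, was at 14.7, 11.2 and 13.9 CPM in SOX17KO, against 156.2, 139.3 and 136.9 CPM in Control, or 9.21% (-3.44 ± 0.13). Hspb1 and 2310043J07Rik were below the lowest member, Wbscr27. Srcrb4d, at -1.87 ± 0.25, was level with Wbscr27, at -1.85 ± 0.18. Without SOX17KO replicate 1 their order was reversed, at -1.68 for Srcrb4d and -1.7 for Wbscr27. Cldn4 was chosen after its values were seen. The 2 tested genes not called were Fzd9, a Wnt receptor gene at 0.614 ± 0.307 CPM in SOX17KO and 0.663 ± 0.12 CPM in Control, and 2010001M06Rik, now named Abhd11os, at 2.31 ± 0.307 CPM in SOX17KO and 2.74 ± 0.533 CPM in Control, both also chosen after their values were seen. The 9 untested neighbours had at most 8 expected counts in SOX17KO and 16 in Control.

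Some of these genes overlap on opposite strands in the GENCODE M21 annotation of GRCm38. Lat2 shares 952 of its 1834 exon bases with Rfc2, Nsun5 658 of 2243 with Pom121, Wbscr22 436 of 1809 with Dnajc30, Polr2j 176 of 1106 with Lrwd1, and 2010001M06Rik 62 of 604 with Abhd11. The libraries were directional, but the strand setting of the counting is not given in the sources used here, so reads of such a pair cannot be told apart with certainty, and the value of Lat2 next to the far more highly counted Rfc2 is the most exposed.

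Genes elsewhere in the genome that work with the members lay around 0, as did most tested genes. Lists of 18 complexes, families or pathways gave 215 tested partner genes, none of them between Wbscr16 and Cux1. Their median log2 fold change was 0.02, with quartiles of -0.06 and 0.11. Over all tested genes the median was 0.01, with quartiles of -0.14 and 0.15. Among the partners 1 had a value at or below -1, Acacb, which encodes an acetyl-CoA carboxylase. With edgeR 3 were called higher and 2 lower, 2.33% of those tested, against 6.87% of all tested genes called either way. The count rests on the libraries used. It was 0 in either direction when Control replicate 1, 2 or 3 was left out, with 1.6%, 1.56% and 1.64% of all genes called. Without SOX17KO replicate 1 it was 22 higher and 27 lower, with 11.9% of all genes called higher and 10.3% lower.

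For some of these complexes, families and pathways, the partners are set beside their member. The members were chosen for being lower in this contrast, so a gap between member and partners is a description and was not tested. The 11 other subunits of RNA polymerase II had log2 fold changes between -0.11 and 0.27, against -1.45 ± 0.15 for Polr2j. The 8 other clamp loader and clamp genes lay between -0.14 and 0.29, against -1.62 ± 0.15 for Rfc2. The 10 other genes of eIF4 initiation factors and eIF4E-binding proteins lay between -0.12 and 0.30, against -1.47 for Eif4h. The 27 other nuclear pore genes lay between -0.50 and 0.13, against -1.53 ± 0.13 for Pom121. The 19 other enzymes of the tricarboxylic acid cycle and malate-aspartate shuttle lay between -0.29 and 0.29, against -1.39 for Mdh2, and the 6 other 14-3-3 genes between -0.34 and 0.29, against -1.62 for Ywhag. The 13 tested partners and targets of ChREBP had a median of 0.05, from -1.31 in Acacb to 0.97 in Khk, with no call. The 15 origin and licensing factors lay between -0.54 in Mcm7 and 0.15; Mcm7 lies on chromosome 5 within the longer stretch from Wbscr16 to Rpl21, and was at 441.0, 281.6 and 288.8 CPM in SOX17KO, against 462.1, 474.8 and 533.2 CPM in Control. In all, 14 of the 18 lists, with 162 tested genes, had no call with edgeR, with 15 genes at an unadjusted p below 0.05. The share of all tested genes below that unadjusted p was not computed, so nothing is read from the 15. For these 162 genes DESeq2 made 12 calls, with 5.72% of all genes called higher and 4.95% lower, and limma-voom made 0, with 6.25% of all genes called. Without SOX17KO replicate 1 edgeR called 32 of the 162, with 11.9% of all genes called higher and 10.3% lower. The lack of a call says little about small changes. On simulated counts 20.9% of genes changed 1.5-fold were recovered.

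**Figure D3:**
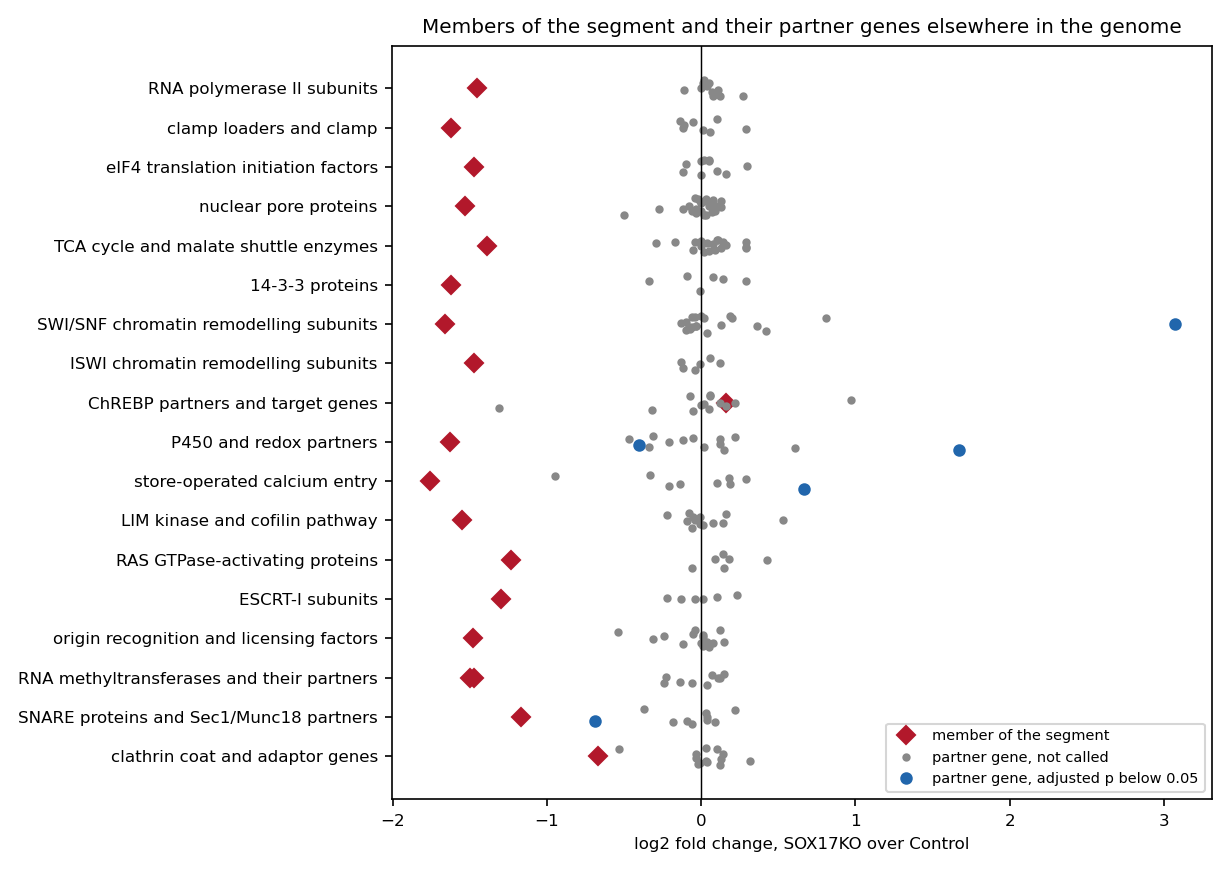
Log2 fold change, SOX17KO over Control, of members of the segment (diamonds) and of the tested partner genes of their complex, family or pathway elsewhere in the genome (circles), 1 row per list. Apart from Mlxipl the diamonds lie between -1.76 and -0.67, while most partner genes lie near 0.

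The 5 called partner genes were in 4 lists. Smarca2, an ATPase of SWI/SNF complexes, rose to 15.7, 47.8 and 43.7 CPM in SOX17KO, against 4.13, 4.78 and 3.88 CPM in Control (3.07 ± 0.42 on the log2 scale; adjusted p = 0.00779 by edgeR). Orai1, the channel subunit related to Orai2, rose to 23.5, 21.7 and 20.1 CPM in SOX17KO, against 14.7, 13.8 and 12.5 CPM in Control (0.67 ± 0.11 on the log2 scale; adjusted p = 0.0155 by edgeR). Groups did not overlap for either gene, and SOX17KO replicate 1 was the lowest of its group for Smarca2. Cyp1a1, a cytochrome P450 supplied with electrons by Por, rose to 1.83, 3.2 and 3.27 CPM in SOX17KO, against 0.615, 1.2 and 0.799 CPM in Control (1.67 ± 0.36; adjusted p = 0.0371 by edgeR). Sqle, the squalene epoxidase that also takes electrons from Por, fell to 241.0, 231.3 and 217.0 CPM in SOX17KO, against 310.1, 305.7 and 293.0 CPM in Control (-0.40 ± 0.08; adjusted p = 0.0273 by edgeR). Stx2, a relative of Stx1a that lies elsewhere on chromosome 5, fell to 5.42, 6.41 and 6.21 CPM in SOX17KO, against 10.8, 8.85 and 9.51 CPM in Control (-0.69 ± 0.15; adjusted p = 0.0369 by edgeR). The 3 genes that rose were higher in 3 of 3 SOX17KO libraries than in every Control library, as were 14% of all tested genes, and the 2 that fell were lower in 3 of 3. All 5 lost the call when Control replicate 1, 2 or 3 was left out, with highest adjusted p values by edgeR of 0.0682 for Smarca2, 0.0977 for Orai1, 0.176 for Cyp1a1, 0.159 for Sqle and 0.176 for Stx2, and Cyp1a1, Sqle and Stx2 also lost it without SOX17KO replicate 2 or 3, when 6.16% and 5.49% of all genes were called. Sqle was also not called with plain library totals (adjusted p = 0.0548 by edgeR).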

How the data were processed

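Per the labels' protocols, a spin-column kit gave the RNA, and poly(A)-selected directional libraries were prepared. Bowtie and RSEM, without versions, and the build mm9 are listed in the submitters' processing notes. Not given in the sources used here are the annotation, the strand setting and any filter. As deposited, the data are a table of expected counts (RSEM's estimated reads per gene), not normalized, in 6 columns matched to samples by name. Values were rounded to whole numbers, since 26.6% to 30.3% of them per library had a fractional part. SOX17KO was compared with Control in edgeR 4.0.16 (R 4.3.3): TMM factors, filterByExpr (minimum count 10, minimum total 15), quasi-likelihood F test of genotype and Benjamini-Hochberg adjustment over 12137 genes. The standard error is the absolute log2 fold change divided by the square root of F. Log2 CPM used a prior count of 2.

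Gene names and order were read from RefSeq's GRCm38.p6 annotation, which is later than mm9 (12010 tested genes matched, 99%); that order places Srrm3 before Ywhag, unlike the list. Promoters were the first entry of a gene; 34 of 39 members had one, and Rfc2, Lat2, Eln, Trim50 and Nsun5 had none. The members and lists were chosen with earlier results of these data known. Named members were both ends, the 8 with most counts, the 6 lowest and 6 highest log2 fold changes and the TFII-I family; further genes were the nearest tested gene on either side, 6 neighbours with the lowest values and up to 3 called partners a list. Alternatives were RLE factors, library totals only, 2 other filters, DESeq2 1.42.0, limma-voom (limma 3.58.1), a replicate block, unrounded values and each library left out. On counts simulated for SOX17KO against Control (12056 genes in the step), 79.1% of genes changed 2-fold were recovered. Of genes changed 1.5-fold, 20.9% were recovered. In all, 9 of the 139 calls were false. Figures used matplotlib 3.10.9.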

Additional observations from a re-analysis of the deposited data

How the results depend on the processing

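The median log2 fold change of the tested members stayed between -1.56 and -1.43 when each library was left out, and between -1.51 and -1.45 under every other alternative run. With 1 library left out, 25 to 30 members were called lower, and with the replicate block 27, Rasa4 losing its call; Gatsl2, just outside the list, lost its call with the block too (adjusted p = 0.0738 by edgeR). Same-numbered libraries did not deviate together from their group means (correlations of -0.186, -0.0467 and -0.181). With 3 libraries a group, deviations from the group mean are tied to each other, so these correlations cannot exclude a pairing by number. No SOX17KO library correlated best with the Control library of its own number. With the block, calls over all genes were 183 higher and 143 lower, against 446 and 388 without it, and partner genes called were 1 higher and 0 lower, Smarca2 remaining. DESeq2 called 770 genes higher and 667 lower, and 11 partner genes each way. With no low-count filter 4 partner genes were called lower. Leaving out 1 library gave 97 to 1453 genes called higher and 94 to 1255 lower, both highest without SOX17KO replicate 1, and 0 to 22 partner genes higher and 0 to 27 lower. No named gene's called direction changed under any alternative. Depth limits Mlxipl, Vps37d and Lat2, with 24 to 46 expected counts over the SOX17KO libraries.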
